A study of Mus musculus with 17 samples.

Results

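The genes described here are 9 that give a macrophage its receptors for growth factors and its surface markers: Csf1r, Csf2ra, Csf2rb, Csf3r, Cx3cr1, Adgre1, Itgam, C5ar1 and Cd14. They were chosen by name from the 21887 protein-coding genes of the reference, and for each gene every peak was taken whose summit lay within 20 kb of the gene. This gave 260 peaks of the 144384 in 16 lists. The peaks mark DNA bound by 5 transcription factors, STAT6, IRF1, JUNB, CEBPB and MYC, in macrophages derived from C57BL/6 bone marrow in medium with L929-conditioned medium and taken on day 7 of differentiation. Cells of the same strain and day were left untreated or given interleukin 4 (IL4, 10 ng/ml), interferon gamma (IFNg, 100 ng/ml) or both (IFNg+IL4). The titles of the IRF1, JUNB, CEBPB and MYC libraries mark the cells as wild type (wt). The titles of the STAT6 and input libraries name no genotype. STAT6 was mapped at 2 h with IL4 and with IFNg+IL4. IRF1, JUNB and CEBPB were mapped untreated and at 4 h with IFNg and with IFNg+IL4, and MYC untreated and at 2 h and 4 h with IL4 and with IFNg+IL4. By its title the study concerns cross-talk between opposing programs of polarization. The comparisons here are between libraries of 1 factor that differ in treatment or time, and between factors in cells of 1 treatment.

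Csf1r encodes the receptor for CSF1 and IL34, on which the survival of most macrophages depends. Csf2ra and Csf2rb encode the specific and the common chain of the GM-CSF receptor, and Csf3r encodes the receptor for G-CSF, best known from neutrophils. Cx3cr1 is the receptor for fractalkine, Adgre1 encodes the F4/80 antigen, Itgam the CD11b chain of an integrin that binds complement, C5ar1 the receptor for the complement peptide C5a, and Cd14 a coreceptor that hands lipopolysaccharide to TLR4. STAT6 is activated by the IL4 receptor, IRF1 is induced by IFNg, JUNB is a subunit of AP-1, CEBPB is a leucine zipper factor of myeloid cells and MYC drives growth. In macrophages such genes are kept active from promoters and enhancers marked by lineage factors such as PU.1, which was not assayed here.

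Each group was 1 library, so no p-values were computed, every comparison is between libraries, and intervals in parentheses are exact Clopper-Pearson 95% intervals that cover counting error only. Peaks at 1 gene are not independent, so the intervals are too narrow. The lists ran from 244 to 24927 peaks. Libraries of STAT6, JUNB and CEBPB and untreated IRF1 were 1.01 to 1.55 times as deep as the input library. In the other 7 the values of a peak resolved into whole reads piled up at its summit, over a lowest background of 0.248 to 0.806 reads. The input list held 128 peaks and 0 near the 9 genes. Of 10 macrophage markers, 5 of which are among the 9 genes, STAT6 peaks with IL4 lay near 10. Of 26 markers of other blood, stromal and endothelial cells they lay near 11 (42.3%, where 49.8% of all genes had one). Of the 26, 7 had no peak in any list: Cd8a, Col1a1, Col1a2, Ly6g, Mcpt4, Mpo and Tek. The share of all genes with no peak in any list is not given here, so this count cannot be set against it. Over the lists the share of the 26 lay on both sides of that of all genes. It was higher for CEBPB with IFNg (57.7% against 48.2%) and JUNB with IFNg (30.8% against 20.7%). It was lower for MYC with IL4 at 2 h (34.6% against 51.1%). The most marked of the 26 were the B cell gene Ms4a1, with 27 peaks over 16 lists, and the dendritic cell genes Flt3 and Zbtb46, with 22 each. Peaks can mark genes that are silent, so these counts do not measure purity.

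All 9 genes had a STAT6 peak with IL4 (49.8% of all genes) and with IFNg+IL4 (46.0%) and a CEBPB peak with IFNg (48.2%). All 9 also had a MYC peak with IL4 at 2 h (51.1% of all genes) and at 4 h (44.8%). None had an IRF1 or MYC peak in untreated cells. Those lists held 244 and 495 peaks and marked only 2.47% and 4.72% of all genes. Itgam had the most peaks over the 16 lists with 49, then Csf1r with 46, Adgre1 with 33, Cd14 with 32, Csf3r with 30, C5ar1 with 27, Cx3cr1 with 22, Csf2rb with 13 and Csf2ra with 8. Of the 260 peaks 107 (41.2%) had their summit inside the gene, and 57 lay closer to another gene than to the member. Windows differ in length, from 41.8 kb for Cd14 to 165.0 kb for Adgre1, and the order of the counts is not the order of the windows.

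**Figure D1:**
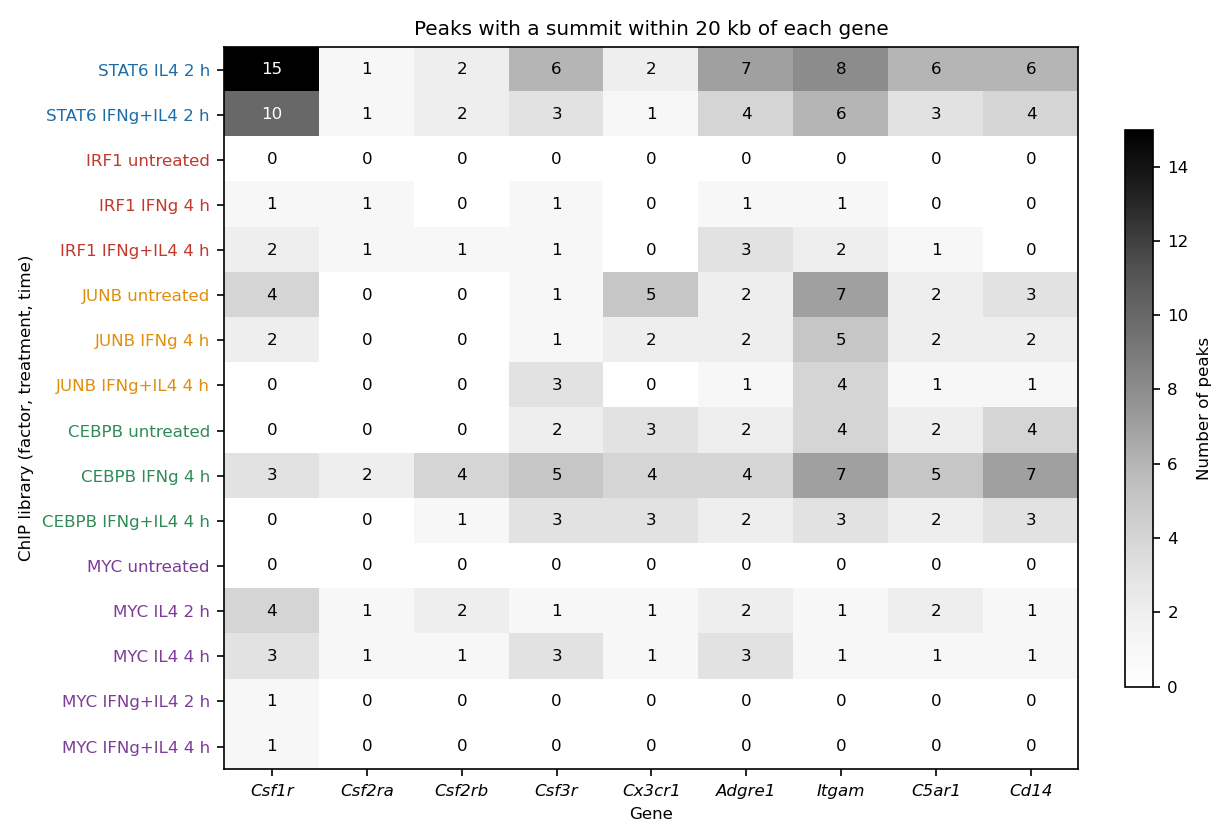
Number of peaks with a summit within 20 kb of each of the 9 genes (columns) in each of the 16 ChIP libraries (rows, coloured by factor), printed in the cell and shaded from 0 to 15. Csf1r with 15 STAT6 peaks holds the highest count, and the untreated IRF1 and MYC rows hold 0 throughout.

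Csf1r (gene ID 12978, chr18:61105572-61131139 in GRCm38, 25.6 kb) had 15 STAT6 peaks with IL4 and 10 with IFNg+IL4. IRF1 gave 1 with IFNg and 2 with IFNg+IL4. JUNB gave 4 untreated, 2 with IFNg and 0 with IFNg+IL4, and CEBPB gave 0, 3 and 0 in the same order. MYC gave 4 with IL4 at 2 h, 3 at 4 h and 1 at each time with IFNg+IL4. The gene was thus the single member with a MYC peak in every cytokine-treated MYC library. The peaks merged into 15 sites, 9 of them inside the gene, and 33 of the 46 peaks were inside. They gathered in the first 3.2 kb from the low-numbered end, where 5 sites held STAT6 and 4 of these also held MYC.

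The strongest Csf1r peak inside the gene was a STAT6 peak at chr18:61107533-61108036, 2.17 kb from the low-numbered end. Its −log10 p, the peak caller's value against the input, was 195 with IL4 (rank 1177 of 24927) and 191 with IFNg+IL4 (rank 800 of 21481). Such values order peaks within 1 list only, and ranks from lists of different length show no change. At this site MYC was listed with IL4 at 2 h (27 reads over a background of 1.15) and at 4 h (25 over 1.65), and with IFNg+IL4 at 2 h (16 over 0.659). About 1 kb further in, at chr18:61108403-61108964, 9 lists of all 5 factors overlapped, among them MYC with 27 reads at both IL4 times and with 11 reads over 1.03 with IFNg+IL4 at 4 h. Csf1r is known for an enhancer within its early introns, to which the sites could not be assigned because the tables used hold no exons. The highest STAT6 peak of the whole window, chr18:61086552-61087641 with a −log10 p of 339 (rank 104) and 289 with IFNg+IL4 (rank 237), lay 18.4 kb outside the gene and 2.08 kb from Pdgfrb, a growth factor receptor of mesenchymal cells.

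Csf2ra (gene ID 12982, chr19:61217191-61228461, minus strand) had the fewest peaks. STAT6 gave 1 in each list, at different places. With IL4 it lay inside the gene (−log10 p 5.83, rank 24539), and with IFNg+IL4 it lay at the promoter (8.02, rank 18810). IRF1 gave 1 peak with IFNg (9 reads over 1.34) and 1 with IFNg+IL4 (19 reads over 0.806) at 1 site beyond the 3' end of the gene, 17.4 and 17.5 kb away. JUNB gave 0 in all 3 lists. CEBPB gave 0 untreated, 2 with IFNg and 0 with IFNg+IL4, and MYC 1 with IL4 at 2 h and 1 at 4 h, both inside the gene. The CEBPB peak at the promoter had a −log10 p of 20.5 (rank 11073) and its summit 11 bases before the start. The STAT6 summit lay 13 bases after the start. The 250 bases before the start (RefSeq, GRCm38.p6), chr19:61228419-61228668 on the minus strand, are shown because the CEBPB summit fell on a pair of PU.1 letters, GAGGAAG. Capitals mark them, with first bases 14 and 8 before the start and 1 base in common. The letters, searched on both strands, occurred in 10.6% of 32851 promoters of this length.

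Csf2ra promoter: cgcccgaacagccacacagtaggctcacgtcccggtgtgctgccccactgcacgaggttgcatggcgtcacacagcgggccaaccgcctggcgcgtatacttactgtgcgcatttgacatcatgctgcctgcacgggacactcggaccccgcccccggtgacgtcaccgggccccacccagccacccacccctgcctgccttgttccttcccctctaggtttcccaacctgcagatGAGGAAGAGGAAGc

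Csf2rb (gene ID 12983, chr15:78325800-78351001) had 2 STAT6 peaks in both lists, 1 IRF1 peak with IFNg+IL4 alone and no JUNB peak. CEBPB gave 0 peaks untreated, 4 with IFNg and 1 with IFNg+IL4. MYC gave 2 with IL4 at 2 h, 1 at 4 h and 0 with IFNg+IL4. The 2 STAT6 sites lay 4.82 kb before the low-numbered end (−log10 p 34.4 with IL4, 30.4 with IFNg+IL4) and 0.15 kb into the gene (24.6 and 15.5), and both were in both lists. The site at the end of the gene, near 78325949, was also where CEBPB was listed with IFNg (43.1, rank 6079 of 21499) and with IFNg+IL4 (6.91, rank 6123 of 6278). Csf2rb2, the mouse paralog that serves the IL3 receptor, lies 15.3 kb from the outer STAT6 site. Near-identical stretches of the pair can share reads, and how multiply aligned reads were handled is not given in the sources used here.

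Csf3r (gene ID 12986, chr4:126023441-126044975, plus strand) had 6 STAT6 peaks with IL4 and 3 with IFNg+IL4, and IRF1 gave 1 peak in each treated list. JUNB gave 1 peak untreated, 1 with IFNg and 3 with IFNg+IL4. CEBPB gave 2, 5 and 3. MYC gave 1 peak with IL4 at 2 h and 3 at 4 h, of which 1 at each time lay inside the neighbouring gene Mrps15. The outstanding site was 19.1 kb before the low-numbered end of the gene, at chr4:126003591-126004795. STAT6 had a −log10 p there of 323 with IL4 (rank 157 of 24927) and 379 with IFNg+IL4 (rank 20 of 21481). In that second list it stood within the highest 0.0931% of peaks. JUNB was listed there with IFNg+IL4, as 2 peaks of 20.0 and 12.6, and in neither of the other JUNB lists. CEBPB was listed there with IFNg (7.74 and 4.79) and with IFNg+IL4 (10.1) and not untreated. A further site, 4.3 to 4.6 kb before that end at chr4:126018558-126019434, held 9 lists of all 5 factors. STAT6 was at 81.7 and 53.5 there, and IRF1 at 11 reads over 0.682 with IFNg and 28 over 1.86 with IFNg+IL4.

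The start of Csf3r is shown because it held a summit of CEBPB in all 3 lists and of STAT6 in both. This start, from the promoter table, lies about 1.2 kb inside the gene span used for the distances above. The 250 bases before the start are chr4:126024409-126024658 on the plus strand, and capitals mark the PU.1 letters GAGGAAG, 86 bases before the start. CEBPB summits lay 10 bases before the start untreated (−log10 p 20.6), 17 with IFNg (128) and 4 with IFNg+IL4 (27.5). STAT6 summits lay 2 bases before it with IL4 (32.5) and 36 after it, beyond the bases shown, with IFNg+IL4 (24.6). The letters searched for C/EBP (TTGCNNAA) and STAT factors (TTC and GAA with 3 or 4 bases between them) did not occur in these 250 bases, which says nothing of either factor.

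Csf3r promoter: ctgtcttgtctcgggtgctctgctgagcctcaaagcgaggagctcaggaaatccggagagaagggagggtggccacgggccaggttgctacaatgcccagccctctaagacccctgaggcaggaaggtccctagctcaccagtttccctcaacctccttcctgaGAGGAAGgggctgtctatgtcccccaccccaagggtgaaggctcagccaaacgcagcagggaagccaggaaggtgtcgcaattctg

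Cx3cr1 (gene ID 13051, chr9:120048683-120068296, minus strand) had 2 STAT6 peaks with IL4 and 1 with IFNg+IL4, and no IRF1 peak. JUNB gave 5 peaks untreated, 2 with IFNg and 0 with IFNg+IL4, whereas CEBPB gave 3, 4 and 3. MYC gave 1 peak with IL4 at each time and 0 with IFNg+IL4. JUNB and CEBPB shared sites here: a site 5.34 kb beyond the 3' end had CEBPB at −log10 p 22.1 untreated, 88.9 with IFNg and 12.8 with IFNg+IL4 and JUNB in the untreated list alone (16, rank 1376 of 9229). A site 0.9 kb inside that end had CEBPB at 54.6, 130 and 43.4 and JUNB at 7.66 untreated and 10.9 with IFNg. The site in mid-gene, chr9:120058553-120059124, held 9 lists of 4 factors, with JUNB at 7.74 untreated and 25.5 with IFNg and not listed with IFNg+IL4. CEBPB there was at 34.7, 86.3 and 7.74, STAT6 at 49.4 and 23.6, and MYC at 14 and 18 reads. No list had a summit at the Cx3cr1 promoter.

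Adgre1 (gene ID 13733, chr17:57358581-57483529, 125.0 kb) had 7 STAT6 peaks with IL4 and 4 with IFNg+IL4, and 1 and 3 IRF1 peaks with IFNg and IFNg+IL4. JUNB gave 2, 2 and 1 peaks and CEBPB 2, 4 and 2. MYC gave 2 with IL4 at 2 h, 3 at 4 h and 0 with IFNg+IL4. Almost all peaks were at or before the low-numbered end: of the 33 only 6 had a summit inside the long gene. The site with the most lists of all 71 was 11.4 kb before that end, at chr17:57346960-57347511, and held 11 lists of all 5 factors. It lacked only the untreated IRF1 and MYC lists, IRF1 with IFNg and MYC with IFNg+IL4 at both times. Its −log10 p values were 87.7 and 38.3 for STAT6, 13.6, 16.4 and 8.72 for JUNB and 12.6, 58.5 and 15.5 for CEBPB, in the order of the treatments given above. MYC had 23 reads over 1.72 at 2 h and 19 over 1.75 at 4 h.

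At the low-numbered end of Adgre1 itself 8 lists met, at chr17:57358255-57358906. CEBPB was among its strongest peaks there, with 48.3 untreated (rank 840 of 5540), 193 with IFNg (rank 603 of 21499) and 62.2 with IFNg+IL4 (rank 523 of 6278). IRF1 had its highest peak of the 9 genes there, with 21 reads over 0.819 with IFNg and 44 over 1.92 with IFNg+IL4. JUNB was listed there with IFNg alone (14.2). STAT6 had 80.7 and 66.1. The 2 STAT6 sites farther out, 18.8 and 16.7 kb before the gene, were stronger, at 129 and 172 with IL4 and 88.4 and 87.7 with IFNg+IL4, and lay 10.54 and 12.6 kb from Vav1, a signalling gene of blood cells.

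Itgam (gene ID 16409, chr7:128062640-128118491, plus strand) had 8 STAT6 peaks with IL4 and 6 with IFNg+IL4, 1 and 2 IRF1 peaks, and the most JUNB peaks of any member, 7 untreated, 5 with IFNg and 4 with IFNg+IL4. CEBPB gave 4, 7 and 3. MYC gave 1 with IL4 at each time and 0 with IFNg+IL4. The strongest CEBPB peak near any of the 9 genes in the untreated and the IFNg list was inside Itgam, 26.7 kb from the start at chr7:128089113-128089755, with −log10 p 64.9 untreated (rank 462) and 227 with IFNg (rank 312). With IFNg+IL4 it was 53.7 (rank 686), below the 62.2 at Adgre1. JUNB lay on the same site with 20.6, 47.9 and 22.2, its strongest peak with IFNg near the 9 genes (rank 925 of 7428), while STAT6 was weak there (14.7 and 9.32). Upstream, 13.6 kb from the start, 8 lists of STAT6, IRF1, JUNB and CEBPB met, with IRF1 at 17 reads over 0.892 with IFNg and 36 over 1.86 with IFNg+IL4. A second IRF1 peak, with IFNg+IL4 alone (31 reads over 1.86), lay 42.9 kb into the gene at a site where no other factor was listed. The promoter of Itgam held no summit.

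Of the 49 peaks near Itgam 14 were closer to the next gene, Itgax, which encodes CD11c, the partner chain of a sister integrin. The Itgax promoter at chr7:128129300-128129549 on the plus strand is shown because summits of STAT6 and JUNB lay on it and it holds letters of both. STAT6 summits were 139 bases before the start with IL4 (−log10 p 44.3) and 114 with IFNg+IL4 (19.4). JUNB summits were 107 bases before it untreated, a weak peak (3.77) with a −log10 q of 0.484, and 70 with IFNg+IL4 (9.93). Capitals mark a STAT match, TTC and GAA with 4 bases between them, 127 bases before the start, and an AP-1 match, TGANTCA, 56 bases before the start. Over 32851 promoters of 250 bases, STAT letters (3 or 4 bases between TTC and GAA) occurred in 12.4% and AP-1 letters in 6.75%. Among promoters with a STAT6 summit with IL4 it was 20.1%, and among those with a JUNB summit 30.3% untreated and 39.1% with IFNg+IL4. The untreated JUNB summit lay nearer to the STAT match than to the AP-1 match.

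Itgax promoter: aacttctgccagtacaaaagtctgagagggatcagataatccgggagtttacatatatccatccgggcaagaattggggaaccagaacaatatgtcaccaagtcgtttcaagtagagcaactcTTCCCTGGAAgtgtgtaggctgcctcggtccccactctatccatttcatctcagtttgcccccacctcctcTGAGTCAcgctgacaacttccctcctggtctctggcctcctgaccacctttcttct

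C5ar1 (gene ID 12273, chr7:16246743-16259540, minus strand) had 6 STAT6 peaks with IL4 and 3 with IFNg+IL4, and 1 IRF1 peak, with IFNg+IL4 alone (15 reads over 3.72). JUNB gave 2, 2 and 1 peaks and CEBPB 2, 5 and 2. MYC gave 2 with IL4 at 2 h, 1 at 4 h and 0 with IFNg+IL4, of which 1 at each time lay inside another gene, Ccdc9. The site with the most lists was inside the gene at chr7:16254200-16254728, with 8 lists of all 5 factors. The JUNB peaks there were the strongest near C5ar1, with −log10 p 23.0 untreated (rank 777 of 9229), 21.2 with IFNg and 16 with IFNg+IL4, and CEBPB was listed with IFNg alone (7.09). Within the gene CEBPB was strongest elsewhere, 1.5 kb from the end that holds the start, with 20.4 untreated, 122 with IFNg and 22.2 with IFNg+IL4. STAT6 had its highest C5ar1 peak 0.59 kb beyond the 3' end (171 with IL4, 48.5 with IFNg+IL4), where no other factor was listed.

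Of the 27 peaks near C5ar1 10 were closer to another gene, among them 6 at a promoter of C5ar2, which encodes the second C5a receptor. That promoter, at chr7:16244155-16244404 on the minus strand, is shown because it held summits of 6 lists. CEBPB summits lay 157 bases before the start untreated (−log10 p 42.4), 146 with IFNg (154) and 161 with IFNg+IL4 (42.3). STAT6 lay at 130 with IL4 (53.3) and 115 with IFNg+IL4 (23.5), and JUNB with IFNg at 146 (11.1). Capitals mark matches to TTGCNNAA, the C/EBP letters on either strand, whose first bases are 210 and 166 bases before the start. These letters occurred in 9.56% of all promoters. They occurred in 47.3% of promoters with a CEBPB summit in untreated cells, 29.7% with IFNg and 40.2% with IFNg+IL4. Another promoter listed for C5ar2, at chr7:16242332-16242581, held a summit of no list and is not shown.

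C5ar2 promoter: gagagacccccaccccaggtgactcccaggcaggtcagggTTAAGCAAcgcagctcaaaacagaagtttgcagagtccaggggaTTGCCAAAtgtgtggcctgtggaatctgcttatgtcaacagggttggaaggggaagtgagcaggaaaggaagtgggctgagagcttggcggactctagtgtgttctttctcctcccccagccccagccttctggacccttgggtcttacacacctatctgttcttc

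Cd14 (gene ID 12475, chr18:36725064-36726815, 1.75 kb) had 6 STAT6 peaks with IL4 and 4 with IFNg+IL4, and no IRF1 peak. JUNB gave 3, 2 and 1 peaks and CEBPB 4, 7 and 3. MYC gave 1 with IL4 at each time, at different sites, and 0 with IFNg+IL4. The MYC peak at 4 h lay inside the neighbouring gene Tmco6. The strongest JUNB peaks, and the strongest CEBPB peaks of the untreated and IFNg lists, were 16.2 kb before the low-numbered end at chr18:36708216-36709314, where JUNB and CEBPB and no other factor were listed, each in all 3 of its libraries. JUNB had −log10 p 26.1 untreated (rank 624 of 9229), 23.5 with IFNg and 10.4 with IFNg+IL4. CEBPB had 51.4 (rank 747 of 5540), 127 and 19.1. The 6 peaks of this site were closer to E230025N22Rik than to Cd14. With IFNg+IL4 the strongest CEBPB peak was in Tmco6 (26.7). STAT6 had its highest Cd14 peak 5.0 kb before the gene, with 55.4 with IL4 and 73.4 with IFNg+IL4. Peaks at the gene itself were from STAT6 (36.2 and 20.9), CEBPB with IFNg (25.5) and IFNg+IL4 (6.23), and JUNB untreated (12.3). Of the 32 peaks 14 were closer to a neighbour, Tmco6, Ndufa2 or E230025N22Rik.

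**Figure D2:**
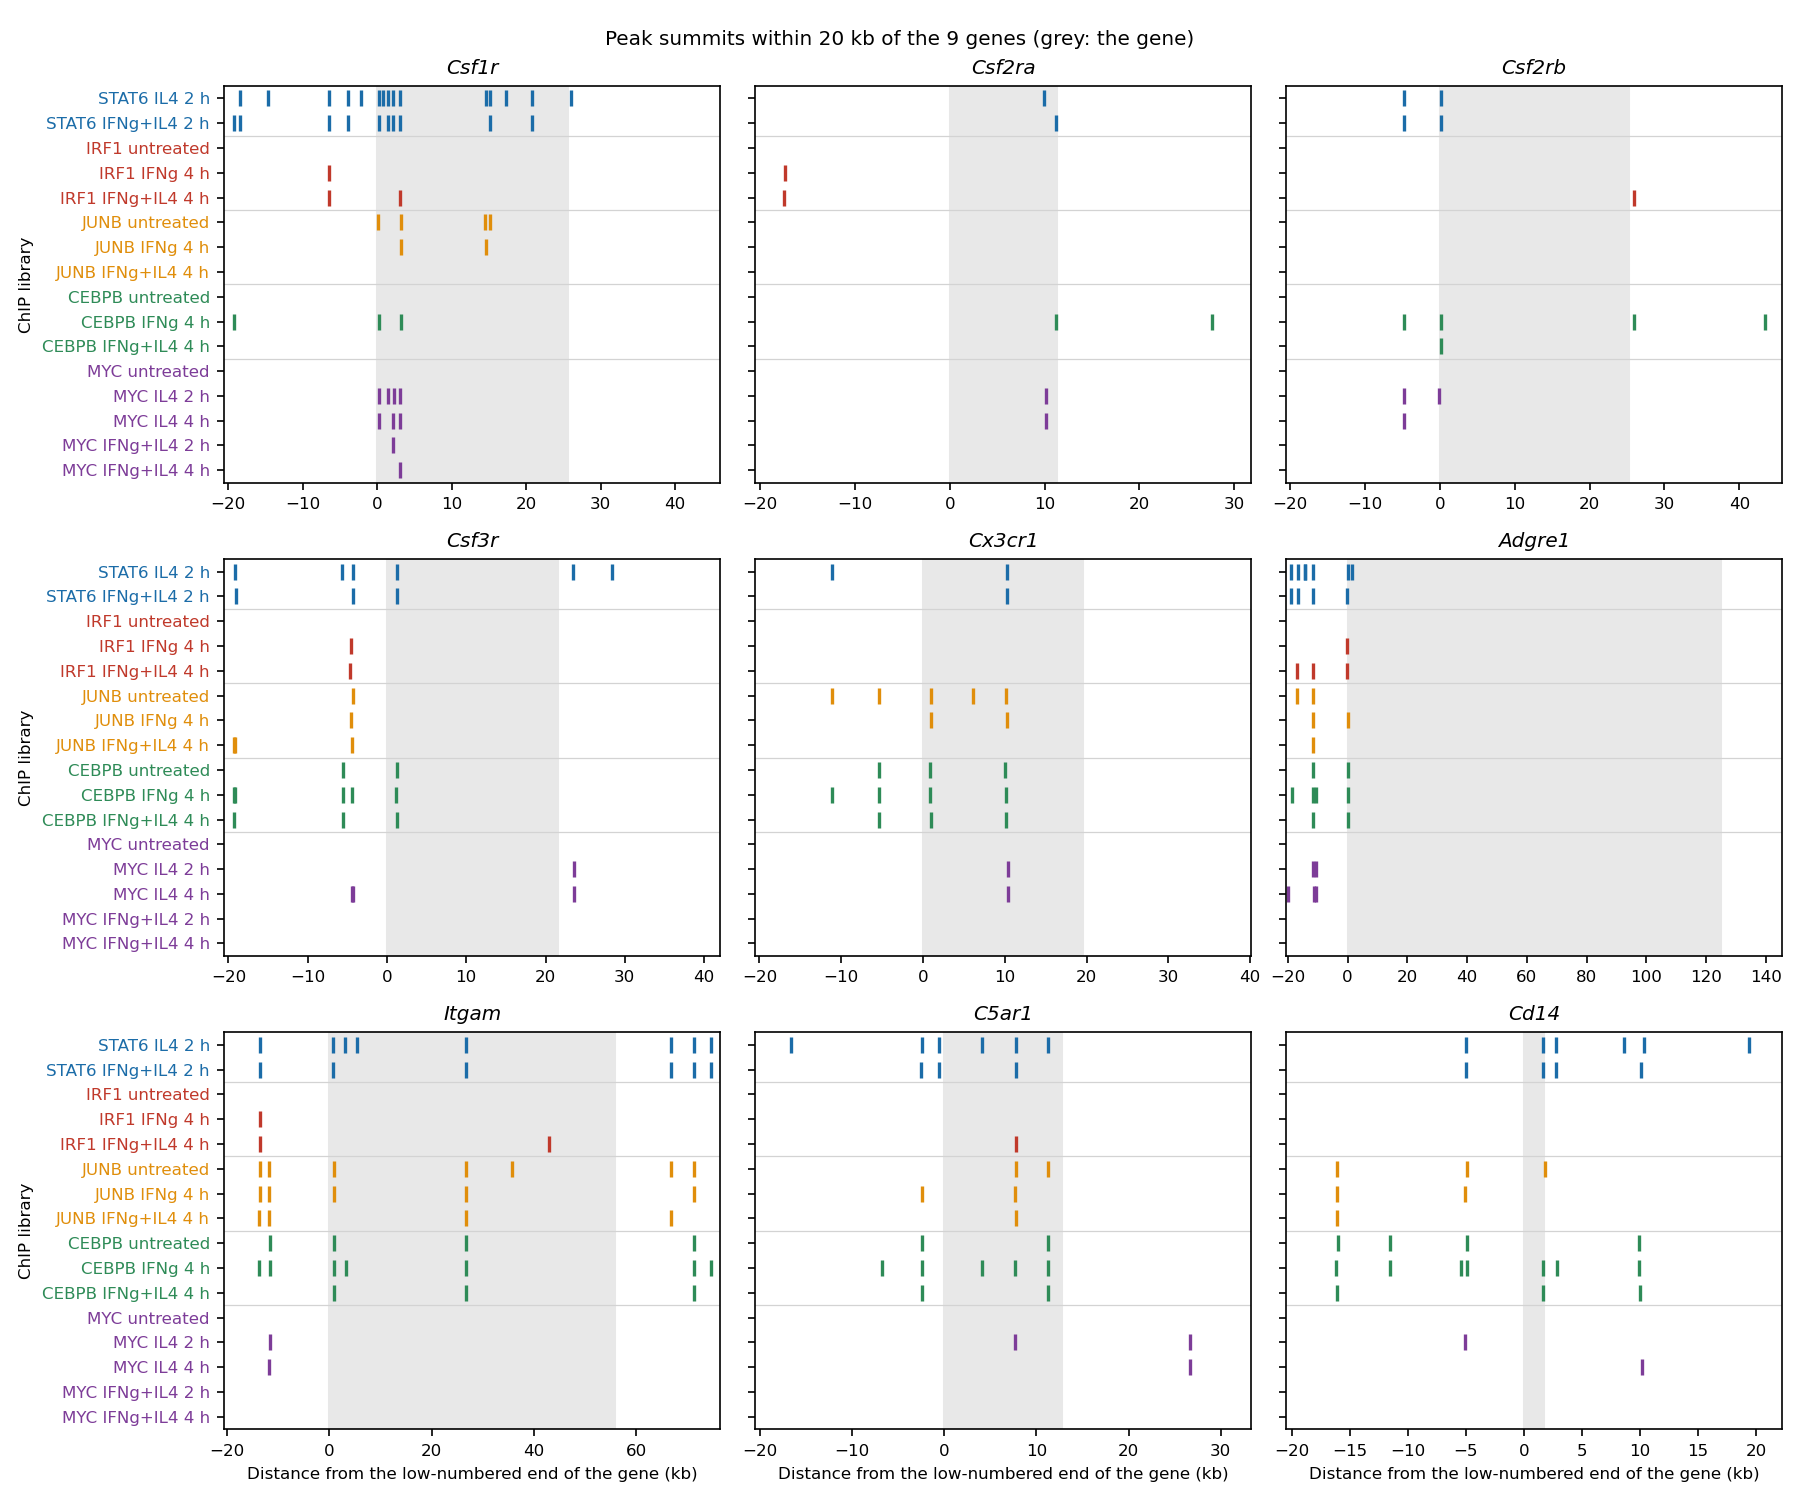
Positions of peak summits (ticks) near the 9 genes, 1 panel per gene and 1 row per ChIP library, as distance in kb from the low-numbered end of the gene, which is shaded grey. Columns of ticks are sites shared by libraries, such as the one 11.4 kb before Adgre1 with 11 lists, and the 2 lowest rows hold a tick at Csf1r only.

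The share of the 9 genes with a peak was read against the share of all protein-coding genes with one. STAT6 peaks lay near 9 of 9 with IL4, where 49.8% of all genes had one, and near 9 of 9 with IFNg+IL4 (46.0% of all genes). For IRF1 it was 0 of 9 untreated (2.47%), 5 of 9 with IFNg (18.0%) and 7 of 9 with IFNg+IL4 (29.7%). For JUNB it was 7 of 9 untreated (25.2%), 7 of 9 with IFNg (20.7%) and 5 of 9 with IFNg+IL4 (16.8%). For CEBPB it was 6 of 9 untreated (20.7%), 9 of 9 with IFNg (48.2%) and 7 of 9 with IFNg+IL4 (22.4%). For MYC it was 0 of 9 untreated (4.72%), 9 of 9 with IL4 at 2 h (51.1%) and 9 of 9 at 4 h (44.8%), then 1 of 9 with IFNg+IL4 at 2 h (20.9%) and 1 of 9 at 4 h (22.6%). The 9 genes thus had a peak within 20 kb more often than the average gene in 12 lists. These were the lists of STAT6, JUNB, CEBPB, treated IRF1 and MYC with IL4. In the 4 others the counts of 0 or 1 of 9 are too small to set apart from the share of all genes. For MYC with IL4 the only peak of Csf3r at 2 h, and of C5ar1 and Cd14 at 4 h, lay inside a neighbouring gene. Within 5 kb MYC with IL4 lay near 6 of the 9 at 2 h and 5 at 4 h, with no share of all genes given here. The average gene is not a match in length or activity, and no test against such a match was made.

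**Figure D3:**
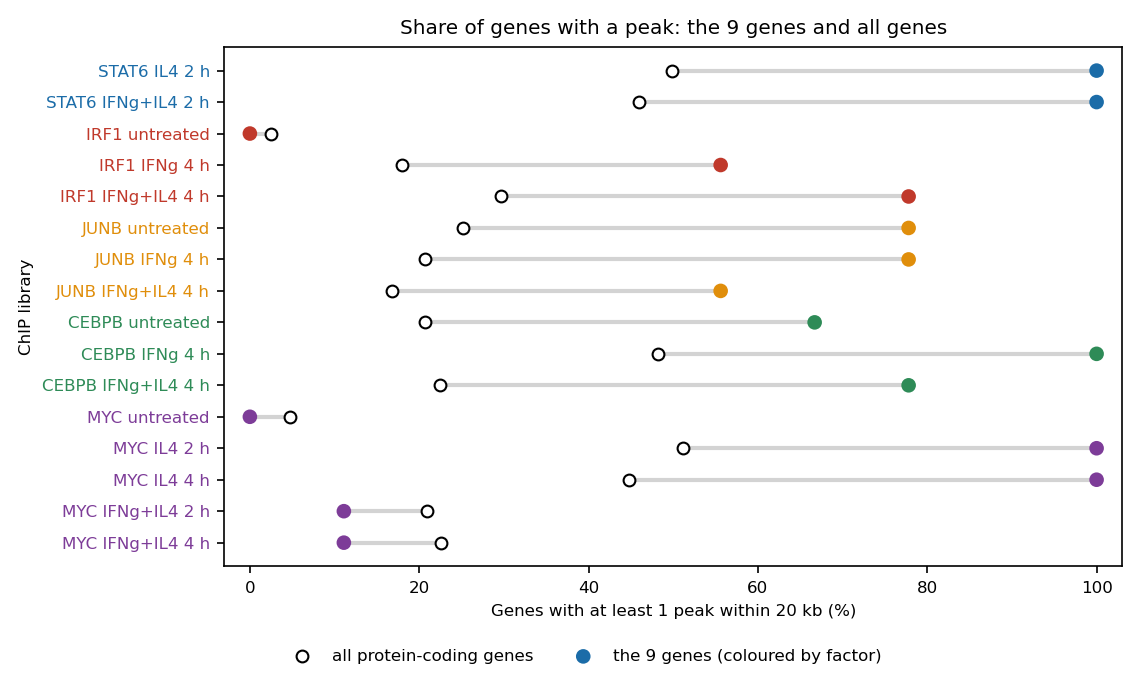
Percent of genes with at least 1 peak summit within 20 kb in each ChIP library, for the 9 genes (filled, coloured by factor) and for all 21887 protein-coding genes (open). The filled points lie to the right of the open ones except in untreated IRF1, untreated MYC and both MYC libraries with IFNg+IL4.

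STAT6 peaks near the 9 genes numbered 53 with IL4 and 34 with IFNg+IL4. Of the 53, 32 (60.4%, 46.0 to 73.5%) overlapped a peak of the IFNg+IL4 list, against 68.7% of all peaks. In the other direction it was 32 of 34 (94.1%, 80.3 to 99.3%) against 80.3%. The 21 peaks not found with IFNg+IL4 had a median −log10 p of 10.9 and the 32 others 54.4. The strongest of the 21 was inside Csf1r at chr18:61122693-61122989 (30.3, rank 8134). By gene, 9 of 15 were found again at Csf1r, 2 of 2 at Csf2rb, 6 of 8 at Itgam, 4 of 6 at Cd14, 4 of 7 at Adgre1, 3 of 6 at Csf3r and at C5ar1, 1 of 2 at Cx3cr1 and 0 of 1 at Csf2ra. The 2 peaks seen only with IFNg+IL4 were at Csf1r and at the Csf2ra promoter. Estimated depths were 1.13 and 1.08 times the input.

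IRF1 peaks near the 9 genes numbered 5 with IFNg, at Csf1r, Csf2ra, Csf3r, Adgre1 and Itgam, and 11 with IFNg+IL4, at the same 5 genes and at Csf2rb and C5ar1. All 5 (47.8 to 100%) were found again with IFNg+IL4, against 95.2% of all peaks. Of the 11, 5 (45.5%, 16.7 to 76.6%) were in the IFNg list, against 47.6%. The IFNg library had 0.426 times the background of the other. Rescaled to that level, 6 peaks of the IFNg+IL4 library near 5 of the 9 genes (21.8% of all genes) would be expected to pass. Of these 5 were the peaks found in both lists, and 1 was the peak inside Itgam at chr7:128105319-128105707 (−log10 p 27.6), which the IFNg list does not hold. The peaks at Csf2rb and C5ar1 were not among the 6.

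JUNB peaks near the 9 genes numbered 24 untreated, 16 with IFNg and 10 with IFNg+IL4. Estimated depths were 1.55, 1.01 and 1.22 times the input. Of the 24, 14 (58.3%, 36.6 to 77.9%) were found with IFNg, against 46.9% of all peaks, and 8 (33.3%, 15.6 to 55.3%) with IFNg+IL4, against 38.2%. Of the 16 with IFNg, 14 (87.5%, 61.7 to 98.4%) were in the untreated list, against 58.7%, and 7 (43.8%, 19.8 to 70.1%) in the IFNg+IL4 list, against 62.0%. Of the 10 with IFNg+IL4, 7 (70.0%, 34.8 to 93.3%) were in the IFNg list, against 82.9%. At Csf1r 0 of 4 untreated peaks and at Cx3cr1 0 of 5 were found with IFNg+IL4, while at Itgam it was 4 of 7. The untreated list reaches weaker peaks than the others, and 5355 of its 9229 had a −log10 q of 2 or more. Among those near the 9 genes with a −log10 q of 5 or more the share found with IFNg+IL4 was 75.0% (6 of 8, 34.9 to 96.8%), against 70.5% of all untreated peaks at that threshold.

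CEBPB peaks near the 9 genes numbered 17 untreated, 41 with IFNg and 17 with IFNg+IL4. Estimated depths were 1.45, 1.33 and 1.31 times the input. All 17 untreated peaks (80.5 to 100%) were found with IFNg, against 99.9% of all peaks, and 14 (82.4%, 56.6 to 96.2%) with IFNg+IL4, against 76.3%. Of the 41 with IFNg, 17 (41.5%, 26.3 to 57.9%) were in the untreated list, against 25.6%, and 18 (43.9%, 28.5 to 60.3%) in the IFNg+IL4 list, against 28.2%. Where 50% of both peaks had to overlap, the share in the IFNg+IL4 list was 26.8% (14.2 to 42.9%), against 18.0% of all peaks. For IFNg peaks with a −log10 q of 5 or more it was 42.1% (26.3 to 59.2%), against 29.8%. In both cases the interval reached the share of all peaks. All 17 with IFNg+IL4 were in the IFNg list, against 97.5%. Csf1r, Csf2ra and Csf2rb had no CEBPB peak untreated and 3, 2 and 4 with IFNg, of which 0, 0 and 1 were found with IFNg+IL4. Csf3r, Cx3cr1 and C5ar1 had 2, 3 and 2 untreated, and 4 of 5, 3 of 4 and 2 of 5 of their IFNg peaks were found with IFNg+IL4. Adgre1, Itgam and Cd14 had 2, 4 and 4 untreated, and 2 of 4, 3 of 7 and 3 of 7 of their IFNg peaks were found. The 23 IFNg peaks not found with IFNg+IL4 had a median −log10 p of 16.8, against 117 for the 18 others, and the strongest of the 23 was upstream of Itgam at chr7:128050816-128051132 (59.1, rank 4428). The IFNg list is the longest of the 3. Cut to its 6278 strongest peaks, the length of the IFNg+IL4 list, it had 18 peaks near 8 of the 9 genes (22.5% of all genes). The IFNg+IL4 list had 17 near 7 (22.4% of all genes).

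MYC peaks near the 9 genes numbered 0 untreated, 15 with IL4 at 2 h, 15 at 4 h and 1 with IFNg+IL4 at each time. Of the 15 at 2 h, 11 (73.3%, 44.9 to 92.2%) were found at 4 h, against 63.1% of all peaks, and in reverse it was 11 of 15 against 87.8%. With IFNg+IL4 it was 1 of 15 (6.67%, 0.169 to 31.9%) at 2 h, against 20.8%, and 1 of 15 at 4 h, against 30.8%. The single peaks were both at Csf1r, at the 2 sites described above. The IFNg+IL4 libraries had a lower background, which rises with depth, at 0.548 and 0.379 times the background of their IL4 counterparts. Rescaled to those levels, 10 peaks of the IL4 library near 7 genes would be expected to pass at 2 h. At 4 h it was 3 near 2 genes, Csf1r and Adgre1. Of all genes 43.8% at 2 h and 30.0% at 4 h would then have a peak. Cut to the length of the IFNg+IL4 list, the IL4 list had 2 peaks near 1 gene at both times. The share of all genes was then 22.3% at 2 h and 24.3% at 4 h, against 20.9% and 22.6% with IFNg+IL4. The background level of the library and the treatment cannot be told apart here.

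**Figure D4:**
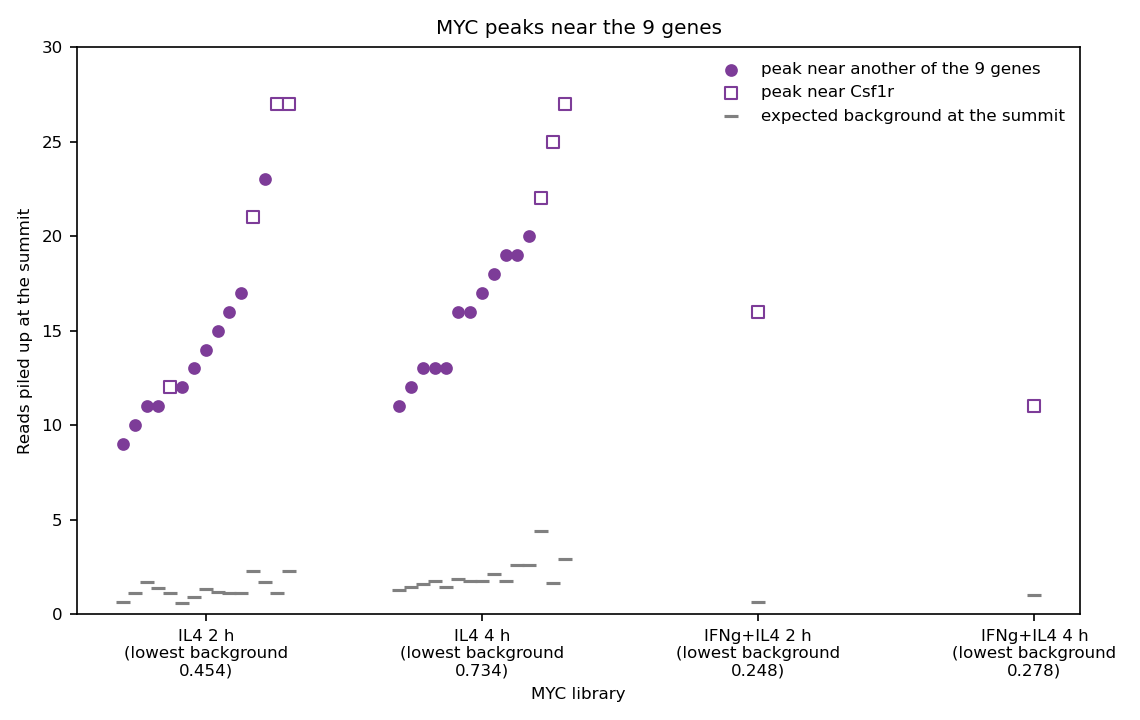
Reads piled up at the summit of each MYC peak near the 9 genes (squares Csf1r, circles other genes) and the expected background at the same summit (dashes), by library, with the lowest background of the library under its name. The IL4 libraries hold 15 peaks each and the IFNg+IL4 libraries 1 each, near Csf1r, with 16 and 11 reads.

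**Figure D5:**
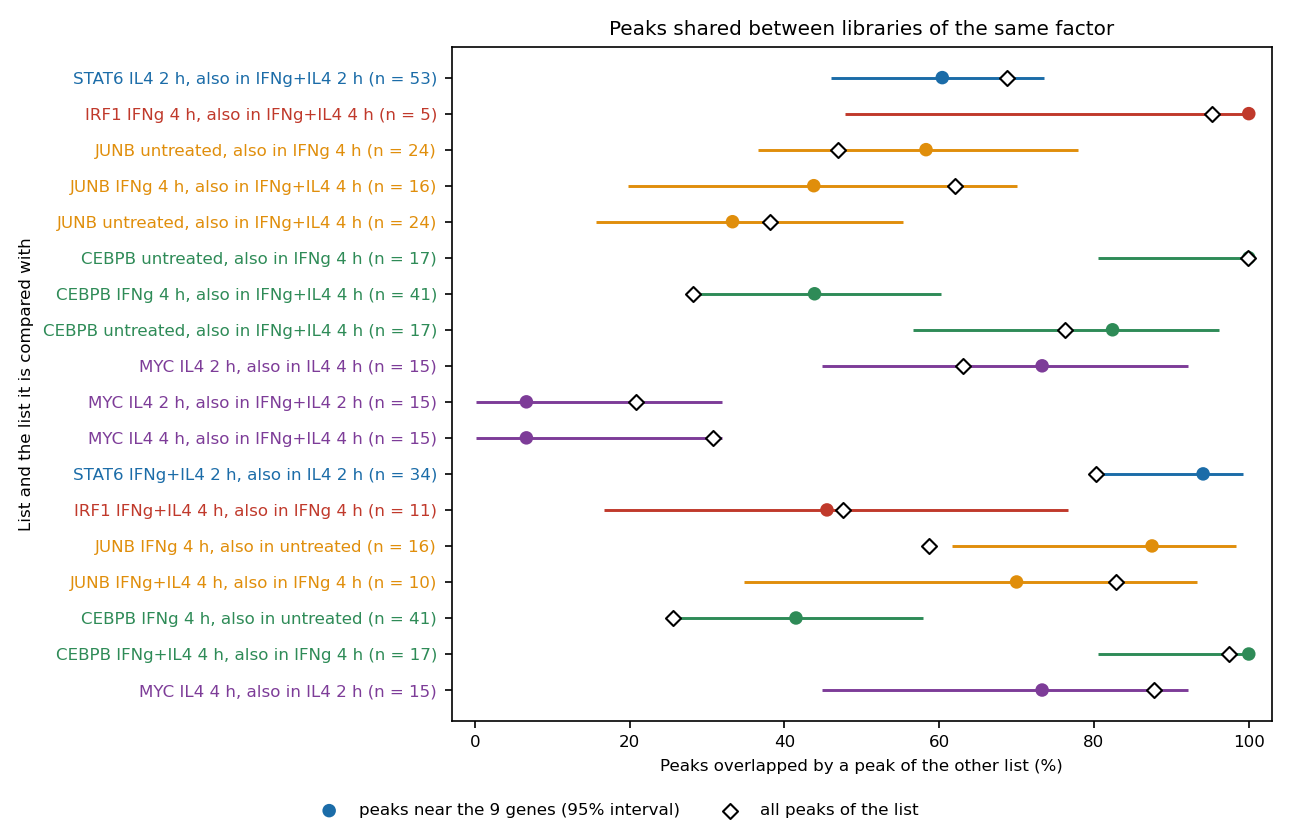
Percent of the peaks near the 9 genes that overlap a peak of the other list (filled, with the 95% interval) and the same for all peaks of the list (open diamonds), for 18 pairs of lists of the same factor. The open diamond lies inside the interval for 14 pairs and below it for 4. Among the 4 are JUNB with IFNg found untreated (87.5% against 58.7%) and, by less than 0.1 points, STAT6 with IFNg+IL4 found with IL4. The others, also by a narrow margin, are CEBPB with IFNg found untreated (diamond 25.6%, lower limit 26.3%) and with IFNg+IL4 (28.2% and 28.5%).

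Overlap between factors in cells of the same treatment was computed for 9 pairs. JUNB peaks near the 9 genes overlapped CEBPB peaks in 11 of 24 cases untreated (45.8%, 25.6 to 67.2%), against 21.3% of all JUNB peaks. With IFNg it was 15 of 16 (93.8%, 69.8 to 99.8%) against 58.1%, and with IFNg+IL4 5 of 10 (50.0%, 18.7 to 81.3%) against 29.3%. All 3 shares were above those of all peaks, and in the untreated and IFNg libraries the interval did not reach them. Where 50% of both peaks had to overlap, the share with IFNg was 50.0% (24.7 to 75.3%) against 41.3% of all peaks, so that the interval then reached it. Untreated it was still 45.8%, against 16.8%. IRF1 peaks overlapped JUNB peaks in 3 of 5 cases with IFNg (23.6% of all), 0 of 5 when 50% of both had to overlap (15.7% of all), and 4 of 11 with IFNg+IL4 (19.1%). They overlapped CEBPB peaks in 3 of 5 (26.8%) and 2 of 11 (11.3%). STAT6 peaks overlapped MYC peaks in 12 of 53 cases with IL4 at 2 h (22.6%, 12.3 to 36.2%), close to the 22.4% of all peaks, and in 1 of 34 with IFNg+IL4, at Csf1r, against 5.34%.

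Merged over all lists, the 260 peaks formed 71 sites. Of these 27 held 1 factor, 22 held 2, 13 held 3, 5 held 4 and 4 held all 5. The sites pool lists of all treatments and times, and no single treatment and time had all 5 factors mapped. Factors listed at a site were therefore not necessarily bound there in the same cells. Sites elsewhere in the genome were not counted in this way, so whether sites of many factors are more frequent near these genes was not tested. The 4 sites with all 5 factors were at Adgre1, Csf3r, Csf1r and C5ar1, each described above. The most frequent combination of 3 or more factors was STAT6, JUNB and CEBPB, at 8 sites. Itgam had 5 of the 22 sites with 3 or more factors, Adgre1, C5ar1 and Cd14 3 each, Csf1r, Csf2rb, Csf3r and Cx3cr1 2 each, and Csf2ra 0.

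The other genes of the pathway give the surroundings of these counts. Of 42 ligands, receptor partners, surface genes and signalling adaptors, 36 (85.7%) had a STAT6 peak with IL4, against 49.8% of all genes, and 36 with IFNg+IL4 (46.0% of all). IRF1 peaks lay near 2 untreated (4.76% against 2.47%), 17 with IFNg (40.5% against 18.0%) and 24 with IFNg+IL4 (57.1% against 29.7%). JUNB peaks lay near 29, 27 and 26 (69.0, 64.3 and 61.9%, against 25.2, 20.7 and 16.8%), and CEBPB peaks near 28, 36 and 26 (66.7, 85.7 and 61.9%, against 20.7, 48.2 and 22.4%). MYC peaks lay near 1 untreated (2.38% against 4.72%), 28 and 24 with IL4 at 2 h and 4 h (66.7 and 57.1%, against 51.1 and 44.8%), and 13 and 10 with IFNg+IL4 (31.0 and 23.8%, against 20.9 and 22.6%). Among the 6 ligands a STAT6 peak with IL4 lay near 4 and an untreated CEBPB peak near 1. Among the 10 adaptors and inhibitors of CSF signalling it was 10 and 8, among 11 receptor chains and partners 9 and 7, and among 15 other surface genes 13 and 12. The genes with the most peaks were Socs3, an inhibitor of cytokine receptors (56), Mertk, a receptor for the uptake of dying cells (53), and, tied at 52, Mpeg1, which encodes a pore-forming protein of phagocytes, Socs1, an inhibitor of JAK kinases, and Tlr4, the lipopolysaccharide receptor. Il5ra, Lbp, Marco and Timd4 had none in any list, without the share of all genes with none to set beside them.

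Likeness to other genes was measured as the sum over the 16 lists of absolute differences in the number of peaks, so that 0 is an identical row. Itgam was most like Msr1, which encodes a scavenger receptor (sum 8). Csf1r was most like Clic4 (9), Csf3r like Tmem156 (7), Adgre1 like Kif16b (6), Cx3cr1 like Tmem121b (5) and Cd14 like Sema6d (5). Csf2ra, with its few peaks, had the same row as Phgdh (0), and Csf2rb and C5ar1 each had several genes tied, at 3 and 5. At the border of the window, 19 summits lay in the last 2 kb inside and 7 in the first 2 kb outside. The last inside was a MYC peak with IL4 at 4 h, 19.99 kb from Adgre1 (−log10 p 8.78), and the first outside a STAT6 peak with IFNg+IL4, 20.04 kb from Itgam (9.82). A strong STAT6 site just outside, 20.29 kb from Adgre1, had 307 with IL4 and 279 with IFNg+IL4.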

How the data were processed

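Peaks in 16 ChIP libraries and 1 input library were analysed, 1 library per group. The submitters' processing notes name Bowtie2 2.2.6, MACS2 2.1.0.20150731 and the build mm10/GRCm38, with settings not given in the sources used here. Each library has its own list, so no replicates were pooled. The deposited fold is the ratio of signal at the summit to the input. For each peak the authors gave −log10 p and, adjusted, −log10 q. The deposited score is 10 times the latter, in untreated JUNB 10 times the former, and was not used further. The last deposited column is the summit offset. Chromosomes 1 to 19, X and Y were kept, and peaks overlapping an input peak (0 to 39 per list) were removed.

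Gene spans and promoters came from RefSeq tables of GRCm38.p6. All 9 genes matched the first, and 5 the second (Csf2ra, Csf3r, Cx3cr1, Itgam and C5ar1). Strand and promoters of the others, and exons of any, were not used here. Summits within 20 kb of a span were counted, lists were compared by an overlap of at least 1 bp, and overlapping peaks were merged into sites. Whole reads at a summit were solved from the fold, taken as (reads + 1) / (background + 1), and the Poisson −log10 p, within 0.003, for 100% of up to 1000 peaks of each of 7 lists. Their ratios of lowest background rest on depth and on read extension together. In the 9 others the scaled pileups fell on steps that gave the depth relative to the input, for 41.8 to 86.0% of peaks, against medians of 6.5 to 11.5% at other ratios. Only a narrow range of ratios above 1 was searched, so a multiple of these depths would not have been found. Scripts were tested on simulated data (Python 3.11.15, SciPy 1.17.1). Motifs were searched on both strands in the 250 bases before a start.

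The members and lists were chosen with earlier results of these data known. Named were all 9 genes, their strongest, most shared and lost or gained peaks, the pathway and marker genes with no peak or among the 3 with the most, and the gene most like each member. Other sites were named after their values were seen. Alternatives were another window, a stricter −log10 q, other overlap rules, equal list lengths and equal lowest background.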

Additional observations from a re-analysis of the deposited data

How the results depend on the processing

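Of 183 recalculations of 37 counts and shares, 159 stayed within 1.5 times the count or within the interval of the share, and 24 moved. Requiring summits within 5 kb left IRF1 with IFNg near 2 genes, JUNB with IFNg+IL4 near 3, MYC with IL4 at 4 h near 5 and 13 sites with 3 or more factors. Within 50 kb MYC with IFNg+IL4 lay near 2 genes at 2 h and 3 at 4 h, and at a −log10 q of 5 or more near 0 at 4 h. The share of all genes under these settings is not given here, so these counts have no background beside them. Reciprocal overlap of 50% gave a share found again of 40% for IRF1 with IFNg in IFNg+IL4, against 67.8% of all peaks. It gave 26.8% for CEBPB with IFNg in IFNg+IL4, against 18.0%. For MYC with IL4 in IFNg+IL4 it gave 0% at 2 h and at 4 h, against 7.74% and 15.3%. Between factors it gave 50.0% (JUNB in CEBPB, IFNg, against 41.3% of all peaks) and 0% (IRF1 in JUNB, IFNg, against 15.7%). For STAT6 in MYC it gave 5.66% with IL4, against 10.5%, and 0% with IFNg+IL4, against 2.04%. Untreated JUNB peaks with a −log10 q of 5 or more were found with IFNg+IL4 in 75.0% of cases (6 of 8), against 70.5% of all peaks at that threshold. With equal numbers of strongest peaks the share was 77.8% (14 of 18) for CEBPB (IFNg in IFNg+IL4). For MYC (IL4 in IFNg+IL4) it was 50.0% at both times, which was 1 of 2 peaks at each. The share of all peaks at equal numbers is not given here. Without Csf1r the MYC share at 2 h was 0% (0 of 11). Alternatives chosen after seeing the data put MYC with IL4 at 4 h near 2 genes (30.0% of all genes) at the lowest background of its IFNg+IL4 library. The share found again was then 33.3% (1 of 3 peaks). At equal list length, also chosen after seeing the data, MYC with IL4 lay near 1 gene at 2 h (22.3% of all genes) and 1 at 4 h (24.3%). Fewer peaks enter under a narrow window or an equal length. For the other changes the cause was not tested. No paired analysis was possible because each group is 1 library. The motif alternatives were not run, since no genome sequence was used here.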

Other observations

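Motif letters were more frequent in promoters that held a summit of the matching factor than in all promoters, as a check of the lists. IRF letters (GAAA and GAAA with 2 bases between them) occurred in 2.98% of 32851 promoters. They occurred in 27.0% of the 263 with an IRF1 summit with IFNg and in 16.5% of the 565 with IFNg+IL4. For untreated IRF1 the excess was small, 5.44% of 147 (8 promoters). The E-box CACGTG occurred in 6.02% of all promoters and in 34.8% of the 184 with an untreated MYC summit. With IL4 it was 15.1% of 3599 at 2 h and 16.7% of 2939 at 4 h, and with IFNg+IL4 23.8% of 1026 and 22.6% of 1074. No MYC or IRF1 summit lay in the promoters of Csf2ra, Csf3r, Cx3cr1, Itgam and C5ar1.

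STAT6 peaks of a relative of the members differed in another way: Csf1, the ligand of the CSF1 receptor, had 0 STAT6 peaks with IL4 and 5 with IFNg+IL4, the one gene among the 42 pathway genes with none in the first list and more than 1 in the second, noticed after the values were seen.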
